A study of Mus musculus with 9 samples.

Results

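Small nucleolar RNAs (snoRNAs) were followed in RNA isolated by pulling down tagged ribosomes from the mouse medial prefrontal cortex (mPFC). The 15 genes described are those whose names begin with Snora or Snord followed by a digit and whose mean level over 9 libraries was at least 1 FPKM (fragments scaled to the transcript's length and to the number of fragments mapped in the library). The tables hold 47593 gene names, of which 122 match this name rule, 39 Snora and 83 Snord. Of the 122, 117 were above 0 in at least 1 library and 5 were listed at 0 in all 9. The level rule kept 10 Snora genes (box H/ACA class) and 5 Snord genes (box C/D class) and set aside 107 genes below 1 FPKM. The genes just inside the threshold were Snora21, with a mean of 1.22 FPKM, and Snord15a, with 1.39 FPKM. Those just outside were Snord104, with 0.953 FPKM, and Snora34, with 0.740 FPKM. The mean over all 9 libraries chose the genes, so their overall level is a description and is not tested.

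Adult C57BL/6 mice carried either GFP-Fxr1 or GFP alone, overexpressed in the mPFC, and the RNA was isolated by RiboTag immunoprecipitation, which pulls down tagged ribosomes with the RNA attached to them. There were 3 groups of 3 libraries. In EWFxr1, mice with GFP-Fxr1 were kept awake. In EW, GFP control mice were kept awake, and in S, GFP control mice slept. Fxr1, a relative of the fragile X protein, binds RNA. The promoter of the overexpressed gene, the cells in which the ribosome tag was made, the hours of wake and the ages of the mice are not given in the sources used here. The labels do not say that the libraries of a group came from separate animals, so p-values measure the spread between libraries, which may be technical. No library combined sleep with GFP-Fxr1, so the comparison of EWFxr1 with S changes both wake and Fxr1.

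SnoRNAs are short nuclear RNAs that work in the nucleolus as ribonucleoproteins. Whether those measured here were attached to ribosomes was not tested. Box C/D RNAs guide methylation of riboses in ribosomal RNA by fibrillarin (Fbl), and box H/ACA RNAs guide the conversion of uridine to pseudouridine by dyskerin (Dkc1). A few, Snora73 and Snord22 among them, take part in cleavage of the ribosomal RNA precursor instead. In mammals most are cut out of introns of host genes, many of which encode ribosomal proteins or are non-coding genes of the Snhg family.

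The sequences of 8 genes on which the results below turn are printed as RNA-strand DNA, 5′ to 3′, read from GRCm38 with GENCODE release M21. They show how alike the genes of the Snora73 pair and of the Snord15 pair are. Capitals mark the box that defines the class: ACA placed 3 bases before the 3′ end in the Snora genes, and TGATGA within the first 20 bases and CTGA within the last 20 bases in the Snord genes. Snora73a (chr4:132352775-132352979, minus strand) and Snora73b (chr4:132352322-132352526, minus strand) both lie in Snhg3, Snora73a over an exon of it and Snora73b over none. Snora78 (chr17:24719676-24719803, minus strand) lies in an intron of Snhg9.
Snora73a: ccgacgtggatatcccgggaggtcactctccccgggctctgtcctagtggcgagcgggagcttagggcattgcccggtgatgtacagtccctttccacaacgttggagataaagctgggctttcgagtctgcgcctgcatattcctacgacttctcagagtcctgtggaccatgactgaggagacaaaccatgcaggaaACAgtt
Snora73b: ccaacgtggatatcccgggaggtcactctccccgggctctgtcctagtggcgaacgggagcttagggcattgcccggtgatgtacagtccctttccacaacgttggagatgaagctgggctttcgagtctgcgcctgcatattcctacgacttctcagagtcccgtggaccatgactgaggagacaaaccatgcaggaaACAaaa
Snora78: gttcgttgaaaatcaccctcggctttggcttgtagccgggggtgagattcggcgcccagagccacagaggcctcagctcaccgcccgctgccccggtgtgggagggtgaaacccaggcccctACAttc

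The 5 Snord genes were Snord17 (chr2:144265979-144266216, minus strand, in an intron of Snx5), Snord22 (chr19:8725866-8725991, plus strand, over an exon of Snhg1), Snord15a (chr7:99482785-99482932, minus strand, in an intron of Rps3), Snord15b (chr7:99479563-99479707, minus strand, over a retained-intron transcript of Rps3) and Snord42b (chr11:78183056-78183124, minus strand, over a retained-intron transcript of Rpl23a).
Snord17: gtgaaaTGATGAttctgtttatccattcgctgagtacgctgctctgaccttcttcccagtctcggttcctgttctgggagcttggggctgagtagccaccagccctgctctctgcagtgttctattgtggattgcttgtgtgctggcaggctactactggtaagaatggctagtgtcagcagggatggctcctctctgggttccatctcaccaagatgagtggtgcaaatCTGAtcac
Snord22: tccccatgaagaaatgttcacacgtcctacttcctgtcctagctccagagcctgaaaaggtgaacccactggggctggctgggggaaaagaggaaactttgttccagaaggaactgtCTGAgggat
Snord15a: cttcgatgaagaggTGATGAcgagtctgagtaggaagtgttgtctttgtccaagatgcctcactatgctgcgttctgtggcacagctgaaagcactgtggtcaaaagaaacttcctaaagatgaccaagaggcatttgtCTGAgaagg
Snord15b: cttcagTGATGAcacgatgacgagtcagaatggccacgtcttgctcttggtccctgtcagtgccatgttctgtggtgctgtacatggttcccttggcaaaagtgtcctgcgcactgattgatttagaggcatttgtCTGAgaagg
Snord42b: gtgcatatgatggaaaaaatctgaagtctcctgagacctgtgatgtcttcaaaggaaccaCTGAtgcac

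No gene carried a box of the other class at its place, but only CTGA near the 3′ end was found in every gene of its class. The boxes define the classes, so their presence is a description and not a test. ACA at its place before the 3′ end was found in 8 of 10 Snora genes and 0 of 5 Snord genes, against 1.38% of the first 140 bases of 58664 annotated protein-coding transcripts. TGATGA near the 5′ end was found in 3 of 5 Snord genes and 0 of 10 Snora genes, against 0.360% of those stretches. CTGA near the 3′ end was found in 5 of 5 Snord genes and 0 of 10 Snora genes, against 9.86%. On the opposite strand TGATGA was in 0 of 5 Snord genes and 3.13% of the stretches, and CTGA in 2 of 5 Snord genes and 49.4% of the stretches, anywhere in the sequence. The ACA place is defined from the 3′ end and was read on the RNA strand alone. TGATGA and CTGA can share the letters TGA, but no printed pair of capitals overlaps. Snora73a and Snora73b were identical at 198 of 205 positions (96.6%), so many reads cannot tell them apart, while Snord15a and Snord15b were identical at 107 of 162 aligned positions (66.0%).

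The genes were short, between 69 and 238 bases with a median of 140, and each had 1 transcript. Of the 15, 14 lay inside a host gene, 10 of them in a protein-coding host and 6 of those in a ribosomal protein gene. An exon of another gene on the same strand overlapped 8 of them, and reads there may come from either RNA. The files hold no counts. From the smallest steps between low values, the libraries held an estimated 2.99e+07 to 3.73e+07 fragments, and in short genes the steps were finer by a factor of 2, which was read as single reads of a fragment. On that scale 7 of the 15 genes had a median under 20 reads per library. The name rule also leaves out most RNAs of the class: the annotation gives 64 snoRNA genes with a mean of at least 1 FPKM, 49 of them under other names, and the 15 genes made up 22.4% to 37.5% of the FPKM of all annotated snoRNA genes in a library. Snord116, the imprinted family of the Prader-Willi region, had 2 names in the tables, with a highest mean of 0.0132 FPKM, and no Snord115 name was found. Copies listed under other names are not in these values, which therefore do not give the level of either family. Snord118, which acts in precursor cleavage, had a mean of 0.489 FPKM. Snord13, which guides acetylation of small-subunit ribosomal RNA, had a mean of 0.415 FPKM, and Snora62 one of 0.147 FPKM.

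Fxr1 stood at 91.1, 67.7 and 71.8 FPKM in EWFxr1 libraries, at 34.8, 33.9 and 31.1 FPKM in EW libraries and at 31.7, 34.8 and 31.0 FPKM in S libraries. The 3 libraries labelled EWFxr1 were thus the highest. The summed level of 6 excitatory neuron markers was 536 to 716 FPKM in EWFxr1, 778 to 904 FPKM in EW and 670 to 771 FPKM in S, and that of 8 astrocyte markers, none at 0 everywhere, was 147 to 157, 220 to 265 and 181 to 212 FPKM in the same order. For 8 oligodendrocyte markers the sums were 125 to 139, 143 to 165 and 99.3 to 153 FPKM, and for 8 microglia markers 27.9 to 29.5, 31.4 to 34.4 and 26.4 to 37.3 FPKM. Protein-coding genes held 89.4% to 93.2% of library FPKM in EWFxr1, 85.2% to 86.2% in EW and 90.2% to 91.9% in S. Across 11535 protein-coding genes, the rank correlation of GC content with a library's deviation from the mean was -0.81, -0.42 and -0.26 in EWFxr1, 0.65, 0.70 and 0.74 in EW, and 0.25, -0.39 and 0.17 in S. The first EWFxr1 library stood apart from the others in this measure. The part that cell composition, GC content or that library had in the results below was not tested unless a value is given. In bulk RNA, fewer cells of a type and less RNA per cell cannot be told apart.

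**Figure D1:**
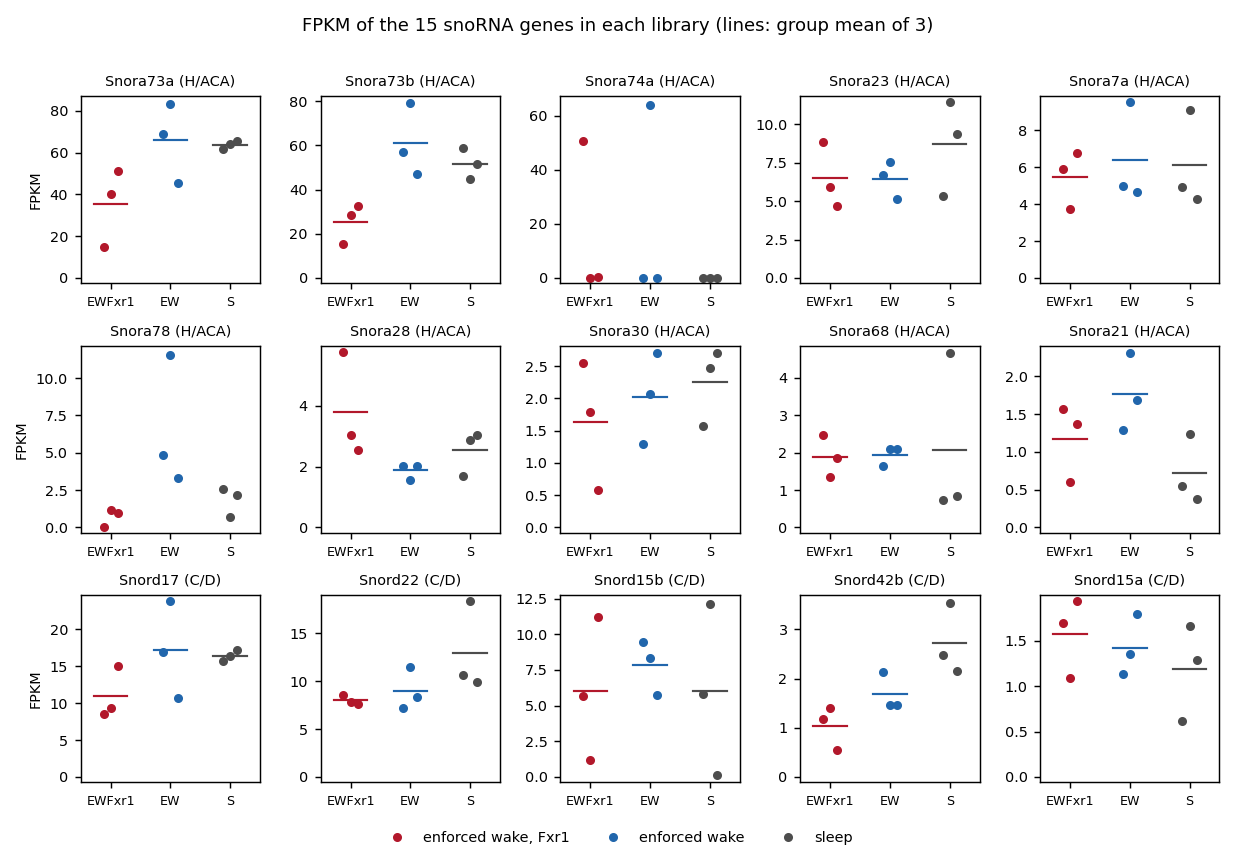
FPKM (vertical axes, linear, separate scales) of the 10 H/ACA and 5 C/D genes in each of 3 EWFxr1 (red), 3 EW (blue) and 3 S (grey) libraries, with lines at group means, which are left out for Snora74a and Snora78 because they hold values at 0. Snora73b lies at 15.2 to 32.4 FPKM in EWFxr1 libraries, below all EW and S libraries, and Snora74a is high in 2 libraries and at or near 0 in the other 7.

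The summed level of the abundant pair Snora73a and Snora73b was lower in every library with GFP-Fxr1 than in every control library, although neither gene passed the test across all genes. It was 60.6 ± 27.7 FPKM in EWFxr1, 127 ± 34.9 FPKM in EW and 115 ± 6.09 FPKM in S (SD, n = 3 each). Of all single genes tested, 32.3% were likewise lower without overlap in EWFxr1 against EW and 21.2% in EWFxr1 against S, the first EWFxr1 library was the lowest for the pair, and the differences of both genes were smaller with the GC trend subtracted. Snord42b, at few reads, passed the test in EWFxr1 against S and was lower in EWFxr1. Differences between groups were tested with limma on log2(FPKM + 1) over all genes with a mean of at least 0.5 FPKM, with Benjamini-Hochberg adjusted p-values and a threshold of 0.05. Fold changes on this scale understate the change of low genes. All 15 genes were tested in each comparison. In EWFxr1 against EW, 0 of 10 H/ACA and 0 of 5 C/D genes passed, beside 0.0824% of all 14563 genes called higher and 0.330% called lower. By unadjusted p below 0.05, limma gave 1 H/ACA gene higher and 2 lower and 0 C/D genes, where 12.9% of all genes were higher and 25.4% lower. In EW against S, 1 of 10 H/ACA genes, Snora21, was higher and 0 lower, and 0 of 5 C/D genes passed, beside 15.7% of all 14673 genes called higher and 12.7% called lower. By unadjusted p, 2 H/ACA genes were higher and 1 C/D gene lower, where 22.6% of all genes were higher and 20% lower. In EWFxr1 against S, 0 of 10 H/ACA genes passed and 1 of 5 C/D genes was lower, beside 3.20% of all 14617 genes called higher and 4.58% called lower. By unadjusted p, 2 H/ACA and 2 C/D genes were lower, where 9.93% of all genes were higher and 19.2% lower. None of these counts is read as a result about the set.

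Groups that did not overlap were counted in the same way. In EWFxr1 against EW, 1 of the 15 genes was higher in every EWFxr1 library and 3 were lower, Snora73b, Snora78 and Snord42b, where 20.3% of all genes were higher and 32.3% lower. In EW against S, 2 were higher and 1 lower, where 25.8% of all genes were higher and 23.8% lower. In EWFxr1 against S, 0 were higher and 5 lower, where 11.5% of all genes were higher and 21.2% lower, the 5 being Snora73a, Snora73b, Snord17, Snord22 and Snord42b. The median log2 fold change of the H/ACA genes was -0.21 in EWFxr1 against EW, 0.11 in EW against S and -0.23 in EWFxr1 against S. The C/D medians were -0.41, -0.0028 and -0.57, and those of all genes tested were -0.057, 0.0043 and -0.088, in the same order.

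The precursor-cleavage RNAs Snora73a and Snora73b were the most abundant genes of the set, with means of 55.0 and 45.9 FPKM over the 9 libraries. Snora73a had 14.6, 40.4 and 51.1 FPKM in EWFxr1, 68.8, 83.5 and 45.6 FPKM in EW, and 61.7, 64.0 and 65.4 FPKM in S. The EWFxr1 libraries lay below all S libraries but overlapped the lowest EW library. Snora73b had 15.2, 28.3 and 32.4 FPKM in EWFxr1, 56.9, 79.0 and 47.0 FPKM in EW, and 58.7, 44.6 and 51.4 FPKM in S. Here every EWFxr1 library was below every EW and every S library, and EW and S overlapped.

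In EWFxr1 against EW, the log2 fold change of Snora73b was -1.27 (SE 0.31, adjusted p = 0.0878) and that of Snora73a was -1.01 (SE 0.47, adjusted p = 0.157). In EWFxr1 against S they were -1.06 (SE 0.28, adjusted p = 0.0562) for Snora73b and -1.004 (SE 0.41, adjusted p = 0.151) for Snora73a. These comparisons share the EWFxr1 libraries. In EW against S, Snora73a differed by 0.0062 on the log2 scale, with a 95% interval of -0.47 to 0.49, and Snora73b by 0.21, with an interval of -0.24 to 0.67.

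The size of the Snora73 difference leaned on the first EWFxr1 library. Without it, the log2 fold change against EW was -0.49 (adjusted p = 0.224) for Snora73a and -0.95 (adjusted p = 0.0320) for Snora73b, which then passed the threshold. The unadjusted limma p of Snora73b was 0.00534 with that library and 0.00505 without it. Genes called among all those tested went from 60 to 3316, and the adjusted p depends on all of them. Against S without that library the values were -0.48 (adjusted p = 0.210) and -0.74 (adjusted p = 0.0619). With each library's GC trend subtracted, the values against EW were -0.47 (adjusted p = 0.468) for Snora73a and -0.76 (adjusted p = 0.175) for Snora73b, and against S Snora73b stood at -0.78 (adjusted p = 0.0356), past the threshold. Snora73a and Snora73b have GC contents of 56.1% and 55.6%. When EWFxr1 against EW was fitted on all 9 libraries, as EWFxr1 against S was, Snora73b passed (limma adjusted p = 0.0359). Genes called among all those tested were then 3366.

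The sum of the pair does not depend on how reads were divided between the nearly identical genes. It was 29.8, 68.7 and 83.4 FPKM in EWFxr1, 126, 162 and 92.6 FPKM in EW, and 120, 109 and 117 FPKM in S. All EWFxr1 libraries were below all others. The difference of mean log2 sums was -1.16 for EWFxr1 minus EW, -1.05 for EWFxr1 minus S and 0.10 for EW minus S. A single value in 3 against 3 libraries cannot reach an exact permutation p below 0.1, and no p is given for sums over the chosen genes. The level of Snora73b over that of Snora73a was 0.791 ± 0.217 in EWFxr1, 0.935 ± 0.103 in EW and 0.811 ± 0.129 in S (SD, n = 3 each), and the groups overlapped. Their host Snhg3, a non-coding gene, had 3.15 ± 0.60 FPKM in EWFxr1, 2.76 ± 0.72 FPKM in EW and 3.43 ± 0.31 FPKM in S (SD, n = 3 each), with a log2 fold change of 0.15 in EWFxr1 against EW (SE 0.17, adjusted p = 0.530).

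Snord22, which is needed for processing of small-subunit ribosomal RNA in frog oocytes, had 8.59, 7.88 and 7.60 FPKM in EWFxr1, 7.17, 11.5 and 8.34 FPKM in EW, and 10.6, 18.4 and 9.93 FPKM in S. EWFxr1 libraries were below all S libraries and within the range of EW. The log2 fold change was -0.59 in EWFxr1 against S (SE 0.23, adjusted p = 0.140) and -0.46 in EW against S (SE 0.25, adjusted p = 0.208). Neither passed the threshold.

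Snora74a showed a different pattern, set by single libraries. It had 50.6, 0.0119 and 0.276 FPKM in EWFxr1, 0.0443, 64.0 and 0.107 FPKM in EW, and 0.141, 0 and 0 FPKM in S. The first EWFxr1 library and the second EW library were high, and the other 7 were below 1 FPKM, so this gene entered the set through 2 libraries. A 111-base transcript of AC121821.1, annotated as a miRNA in GENCODE M21, overlaps the 196 bases of Snora74a on the same strand of chromosome 18. Its level was 0.0215, 25.2 and 27.5 FPKM in EWFxr1, 34.3, 0.0341 and 27.0 FPKM in EW, and 23.3, 35.2 and 25.9 FPKM in S. It was near 0 in exactly the 2 libraries in which Snora74a was high. As estimated reads, the 2 transcripts together held 672, 209 and 218 reads in EWFxr1, 228, 769 and 182 in EW, and 173, 237 and 182 in S. The sum was highest in the 2 libraries where Snora74a was high, and its other 7 values lay between 173 and 237. Snora74a did not pass the test in any comparison, and no fold change is given for it.

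**Figure D2:**
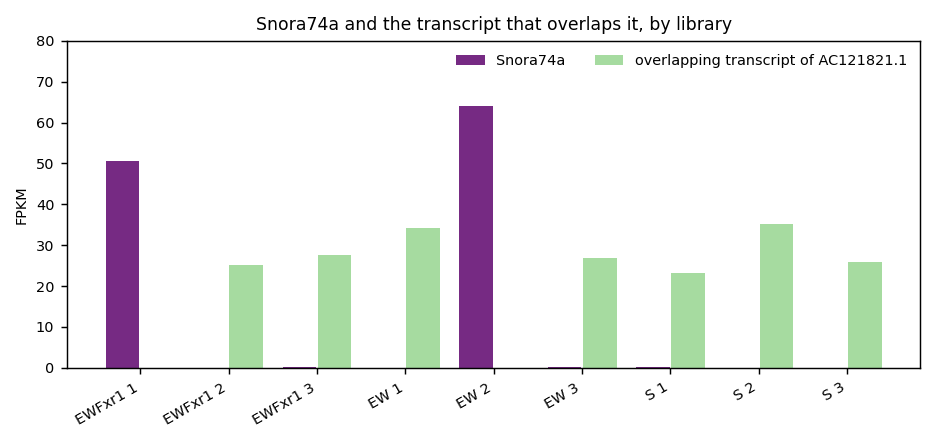
FPKM (vertical axis, linear) of Snora74a (purple) and of the overlapping transcript of AC121821.1 (green) in each of the 9 libraries. Wherever one is above 20 FPKM the other is below 1 FPKM, and Snora74a is the high one in EWFxr1 library 1 and EW library 2.

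Among the other H/ACA guides, Snora78 had the largest differences between groups on the log2 scale. It had 0, 1.15 and 0.989 FPKM in EWFxr1, 4.83, 11.6 and 3.30 FPKM in EW, and 2.55, 0.703 and 2.16 FPKM in S. All EW libraries were above all libraries of the other groups, and EWFxr1 and S overlapped. The log2 fold change was -2.07 in EWFxr1 against EW (SE 0.46, adjusted p = 0.0878) and 1.35 in EW against S (SE 0.44, adjusted p = 0.0612). In EWFxr1 against S it was -0.72 (SE 0.46, adjusted p = 0.311). Snora78 has the highest GC content of the set, 64.1%, and with the GC trend subtracted the first of these values was -1.11 (adjusted p = 0.205) and the second 0.84 (adjusted p = 0.199). Without the first EWFxr1 library the value against EW was -1.72 (adjusted p = 0.0447). The unadjusted limma p was then 0.00919, against 0.00334 with that library, while 3316 of all genes were called, against 60. Fitted on all 9 libraries, Snora78 passed in EWFxr1 against EW (limma adjusted p = 0.0359). Its estimated reads ran from 0 to 91 per library. Its host Snhg9 was at or below 0.487 FPKM in every library and was not tested.

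Snora28, a guide for small-subunit ribosomal RNA in human cells, had 5.76, 3.06 and 2.55 FPKM in EWFxr1, 2.04, 1.57 and 2.02 FPKM in EW, and 1.69, 2.86 and 3.05 FPKM in S. It was the one gene of the 15 whose EWFxr1 libraries all lay above all EW libraries. The log2 fold change in EWFxr1 against EW was 0.68 (SE 0.24, adjusted p = 0.103). Its GC content of 42.5% is the lowest of the set, and with the GC trend subtracted the value was 0.44 (adjusted p = 0.240). Without the first EWFxr1 library, the highest of the 9, it was 0.41 (adjusted p = 0.0579). Its host Eif5, a translation initiation factor, had 89.3 ± 14.3 FPKM in EWFxr1, 65.2 ± 1.59 FPKM in EW and 87.7 ± 5.46 FPKM in S (SD, n = 3 each).

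Snora21, a guide for large-subunit ribosomal RNA in human cells, reached the level rule only through EW: over the 6 EWFxr1 and S libraries its mean was 0.946 FPKM, below the minimum of 1 FPKM. Its difference between EW and S is therefore a description. It had 1.29, 2.31 and 1.69 FPKM in EW and 0.546, 1.23 and 0.371 FPKM in S, and the groups did not overlap. The log2 fold change was 0.70 (SE 0.21, adjusted p = 0.0485), and this p lends no support to a difference of the set. EWFxr1 libraries, at 1.56, 0.599 and 1.36 FPKM, overlapped both. The estimated reads behind it were 3 to 19 per library. The call was lost without the second EW library, at 0.56 (adjusted p = 0.133), and held in 7 of 17 other settings. Its host Rpl23, with 106 ± 5.41 FPKM in EW and 118 ± 9.41 FPKM in S (SD, n = 3 each), had a log2 fold change of -0.14 (adjusted p = 0.184).

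The other 4 H/ACA genes overlapped between all groups and passed no test. Snora23, in Ipo7, ranged from 4.68 to 8.85 FPKM in EWFxr1, 5.15 to 7.57 FPKM in EW and 5.37 to 11.5 FPKM in S. Snora7a, in Rpl32, ranged from 3.72 to 6.77 FPKM in EWFxr1, 4.68 to 9.55 FPKM in EW and 4.29 to 9.12 FPKM in S. Snora30, in Gm42715 and Srcap, ranged from 0.576 to 2.55, 1.29 to 2.71 and 1.58 to 2.70 FPKM in the same order. Snora68 ranged from 1.35 to 2.46, 1.65 to 2.09 and 0.743 to 4.65 FPKM, the widest range being that of S.

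Of the C/D genes, Snord17, a guide for large-subunit ribosomal RNA in human cells, was the most abundant, with a mean of 14.8 FPKM. It had 8.59, 9.34 and 15.1 FPKM in EWFxr1, 16.9, 23.8 and 10.7 FPKM in EW, and 15.7, 16.4 and 17.1 FPKM in S. EWFxr1 libraries were below all S libraries and overlapped EW. The log2 fold change was -0.57 in EWFxr1 against S (SE 0.28, adjusted p = 0.202), -0.57 in EWFxr1 against EW (SE 0.31, adjusted p = 0.213) and -0.0028 in EW against S.

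Snord42b, a guide for small-subunit ribosomal RNA in human cells, was the one C/D gene that passed the test, in EWFxr1 against S. It had 1.17, 1.40 and 0.547 FPKM in EWFxr1, 2.13, 1.46 and 1.46 FPKM in EW, and 2.48, 3.54 and 2.15 FPKM in S. The groups did not overlap, EWFxr1 lowest and S highest, but both gaps between neighbouring groups were small for a gene at few reads. EWFxr1 reached 1.40 FPKM and EW began at 1.46 FPKM, while EW reached 2.13 FPKM and S began at 2.15 FPKM. The log2 fold change was -0.88 in EWFxr1 against S (SE 0.20, adjusted p = 0.0359), -0.46 in EW against S (SE 0.16, adjusted p = 0.0742) and -0.41 in EWFxr1 against EW (SE 0.19, adjusted p = 0.158). With the GC trend subtracted the first value was -0.94 (adjusted p = 0.0117), and without the first EWFxr1 library it was -0.93 (adjusted p = 0.0414). Without the second EW library, which enters the fit only through the shared spread, its adjusted p was 0.0650. The call held in 10 of 20 other settings, with adjusted p up to 0.106, and was lost when only the 6 libraries compared were fitted. The gene is 69 bases long, the shortest of the set, and its estimated reads were 3 to 15 per library. Its host Rpl23a had 170 ± 9.99 FPKM in EWFxr1, 201 ± 2.19 FPKM in EW and 173 ± 6.20 FPKM in S (SD, n = 3 each).

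Snord15b and Snord15a, from different introns of Rps3, guide the same region of large-subunit ribosomal RNA in human cells and differed in their spread. Snord15b had 5.69, 1.22 and 11.2 FPKM in EWFxr1, 9.43, 8.33 and 5.72 FPKM in EW, and 5.82, 12.1 and 0.113 FPKM in S. Its libraries spread far more within EWFxr1 and within S than between the groups. Snord15a stayed between 0.611 and 1.93 FPKM in all 9 libraries. Neither passed the test in any comparison.

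**Figure D3:**
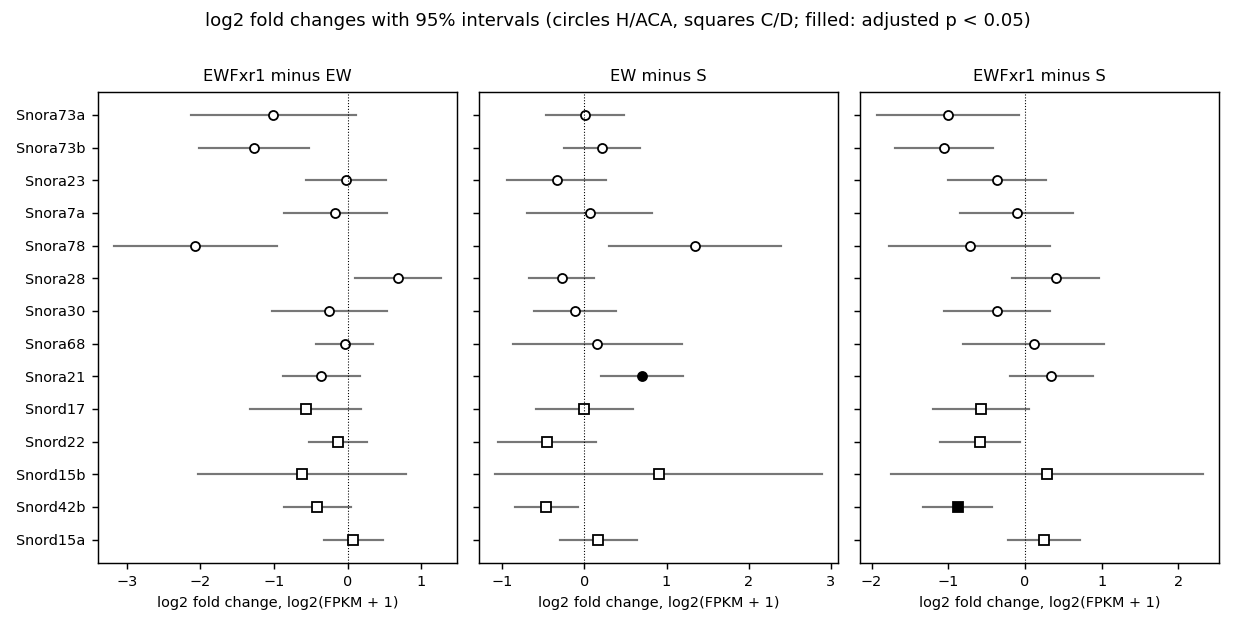
Log2 fold changes (horizontal axes) with 95% intervals from limma for 14 genes in EWFxr1 minus EW, EW minus S and EWFxr1 minus S, with circles for H/ACA, squares for C/D and filled symbols for adjusted p below 0.05. Snora74a is left out. Filled symbols are Snora21 in EW minus S, at 0.70, a gene that entered the set through its EW level, and Snord42b in EWFxr1 minus S, at -0.88.

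The summed level of the 10 H/ACA genes was 98.7 ± 11.0 FPKM in EWFxr1, 175 ± 77.9 FPKM in EW and 140 ± 1.56 FPKM in S (SD, n = 3 each). EWFxr1 libraries lay between 86.3 and 107 FPKM and did not overlap EW, at 114 to 263 FPKM, or S, at 138 to 141 FPKM. Snora74a supplied 50.6 FPKM of the first EWFxr1 library and 64.0 FPKM of the second EW library. Without it, the sums were 81.8 ± 23.0, 154 ± 42.7 and 140 ± 1.63 FPKM in the same order, and EWFxr1 was still below both. The Snora73 pair supplied 27.7% to 87.3% of the H/ACA sum. Without the pair and without Snora74a, the other 7 H/ACA genes summed to 21.2 ± 5.17 FPKM in EWFxr1, 27.1 ± 8.41 FPKM in EW and 24.2 ± 7.67 FPKM in S (SD, n = 3 each), and all groups overlapped.

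The summed level of the 5 C/D genes was 27.7 ± 7.88 FPKM in EWFxr1, 37.1 ± 9.20 FPKM in EW and 39.3 ± 11.3 FPKM in S (SD, n = 3 each), with overlap between all groups. As a share of library FPKM, the H/ACA genes held 0.0308% ± 0.0042 in EWFxr1, 0.0492% ± 0.0215 in EW and 0.0418% ± 0.0009 in S. In share, EWFxr1 and EW overlapped, and all EWFxr1 libraries were below all S libraries. Total FPKM was 309832 to 327390 in EWFxr1, 353448 to 358936 in EW and 330697 to 337117 in S. The C/D genes held 0.00861% ± 0.00239, 0.0104% ± 0.00250 and 0.0118% ± 0.00349 in the same order and overlapped. The H/ACA sum without Snora74a was 3.05 ± 0.98 times the C/D sum in EWFxr1, 4.13 ± 0.14 times in EW and 3.73 ± 0.94 times in S, again with overlap, so a different change of the classes was not detectable in 3 libraries a group.

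**Figure D4:**
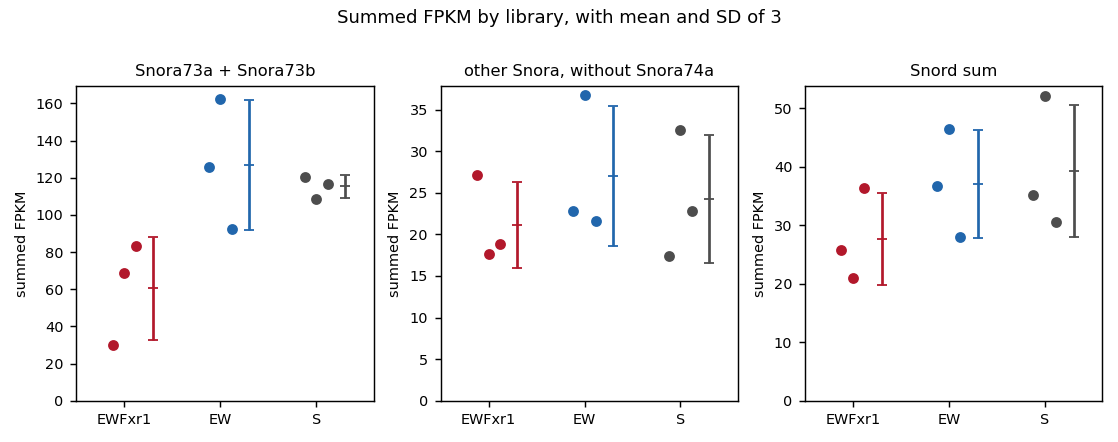
Summed FPKM (vertical axes, from 0) of Snora73a and Snora73b, of the other Snora genes without Snora74a, and of the Snord genes, in each EWFxr1, EW and S library, with the mean and SD of 3 beside the points. The Snora73 sum is below 84 FPKM in all EWFxr1 libraries and above 92 FPKM in all others, while the other sums overlap between groups.

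Host genes and protein partners were tested in the same fits. In all genes tested, 15.7% were called higher and 12.7% lower in EW against S, 0.0824% and 0.330% in EWFxr1 against EW, and 3.20% and 4.58% in EWFxr1 against S, and the counts of the lists below stand beside these shares. Of 12 hosts, 11 were tested. In EWFxr1 against EW, 0 passed by limma's adjusted p, and Eif5 had the value 0.0880. In EWFxr1 against S, 0 passed, with the lowest limma adjusted p at 0.0985. In EW against S, the ribosomal protein genes Rps3 and Rpl23a rose and Eif5 fell. Rps3 had 83.7 ± 3.06 FPKM in EW and 71.6 ± 3.23 FPKM in S (SD, n = 3 each), a log2 fold change of 0.22 (SE 0.06, adjusted p = 0.0317). Of the snoRNAs it hosts, Snord15a stood at 0.17 (SE 0.20, adjusted p = 0.544) and Snord15b at 0.90 (SE 0.84, adjusted p = 0.445). Rpl23a rose by 0.22 (SE 0.05, adjusted p = 0.0235), while Snord42b stood at -0.46. Eif5 fell by 0.42 on the log2 scale (SE 0.06, adjusted p = 0.00659), while Snora28 stood at -0.28 (SE 0.17, adjusted p = 0.248).

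Of the box C/D core proteins, Fbl, Nop56 and Nop58 were tested and 0 passed in any comparison. Fbl had 7.97 ± 1.82 FPKM in EWFxr1, 11.8 ± 0.81 FPKM in EW and 13.0 ± 2.43 FPKM in S (SD, n = 3 each), with a log2 fold change in EWFxr1 against S of -0.65 (SE 0.17, adjusted p = 0.0558). Of the 4 box H/ACA core proteins, Dkc1 and Nhp2 did not pass. In EW against S, Gar1 rose by 0.30 (SE 0.09, adjusted p = 0.0466) and Nop10 fell by 0.24 (SE 0.07, adjusted p = 0.0431). None of the 4 passed in the other comparisons. Among 14 factors of snoRNP assembly and the Cajal body, where snoRNPs mature, 2 rose and 4 fell in EW against S, 0 passed in EWFxr1 against EW, and 2 fell in EWFxr1 against S. Parn, a poly(A) ribonuclease that trims H/ACA RNA ends, had 4.99 ± 0.43 FPKM in EWFxr1, 4.54 ± 0.25 FPKM in EW and 7.53 ± 0.32 FPKM in S (SD, n = 3 each), with a log2 fold change of -0.62 in EW against S (SE 0.07, adjusted p = 0.00304).

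A list of ribosomal RNA processing and nucleolar proteins joined the processome, the particle that cleaves the small-subunit precursor, with the large-subunit factors Bop1, Pes1, Wdr12 and Nop2, the abundant nucleolar proteins Ncl and Npm1, and Dkc1, already counted among the core proteins. Of its 21 tested genes, 4 rose and 4 fell in EW against S, 0 passed in EWFxr1 against EW and 1 rose in EWFxr1 against S. Those that rose in EW against S were Rrp9, Imp4, Bop1 and Nop2, and those that fell were Nol11, Nop14, Ncl and Npm1. Rrp9, a processome protein that binds box C/D RNA, had 3.99 ± 2.46 FPKM in EWFxr1, 8.41 ± 0.75 FPKM in EW and 5.19 ± 0.45 FPKM in S (SD, n = 3 each), with a log2 fold change of 0.60 in EW against S (SE 0.09, adjusted p = 0.00658). Ncl (nucleolin) and Npm1 (nucleophosmin) fell in EW against S by 0.30 (SE 0.06, adjusted p = 0.0133) and 0.29 (SE 0.07, adjusted p = 0.0235) on the log2 scale. A list of long non-coding RNAs joined the Snhg genes and Gas5 with Meg3, Rian and Mirg of the imprinted Dlk1-Dio3 region. Of its 15 tested genes, 1 rose in EW against S and 0 passed in the other comparisons. The gene that rose was Mirg, which hosts microRNAs rather than snoRNAs, by 0.53 on the log2 scale (SE 0.14, adjusted p = 0.0366).

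Other short non-coding RNAs were set beside Snora73. Rpph1, the RNA of ribonuclease P, had 15.9, 81.5 and 113 FPKM in EWFxr1, 458, 494 and 523 FPKM in EW, and 155, 87.2 and 168 FPKM in S. The EW libraries were above all others, and the first EWFxr1 library was the lowest. Rmrp, the RNA of ribonuclease MRP, which also cleaves the ribosomal RNA precursor, had 19.7, 102 and 123 FPKM in EWFxr1, 352, 390 and 285 FPKM in EW, and 217, 135 and 223 FPKM in S. Every EWFxr1 library was below every EW and every S library, as for the Snora73 sum. Of all genes, 32.3% were likewise lower without overlap against EW and 21.2% against S. The log2 fold change of Rmrp was -2.41 in EWFxr1 against EW (SE 0.65, adjusted p = 0.0880) and -1.55 in EWFxr1 against S (SE 0.60, adjusted p = 0.134). In EW against S, 3 of 6 tested abundant short RNAs rose. Rpph1 rose by 1.89 (SE 0.24, adjusted p = 0.00433), Rmrp by 0.86 (SE 0.21, adjusted p = 0.0278) and Rn7sk by 0.48 (SE 0.08, adjusted p = 0.00777). The log2 difference of the Snora73 sum there was 0.10. The Y RNAs Rny1 and Rny3 were below all S libraries in EWFxr1 and overlapped EW. Rny1 had 18.2, 24.7 and 40.4 FPKM in EWFxr1, 37.7, 48.5 and 19.0 FPKM in EW, and at least 41.5 FPKM in S. Of 8 tested Scarna genes, which guide modification of spliceosomal RNA in the Cajal body, 1 rose in EW against S, Scarna2, by 0.58 (SE 0.09, adjusted p = 0.00900), and 0 passed in the other comparisons. Scarna13 was listed at 0 in 5 libraries and at 25.6 to 61.7 FPKM in the other 4, which came from all 3 groups.

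In the authors' deposited tables, 0 of the 15 snoRNA transcripts had a q-value below 0.05. The lowest q-value there was 0.537 in the table of EWFxr1 over EW, for Snord42b, and 0.404 in the authors' deposited table of S over EW, for Snora78.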

How the data were processed

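Transcript FPKM per library were computed by the authors, per the file headers. HISAT2 2.1.0, SAMtools 1.9, StringTie 1.3.4d and GRCm38 are named in the submitters' processing notes, without roles. The 2 deposited tables also hold the authors' fold (a ratio of the groups), p-value and q-value per transcript. Per the labels, the library kit was a TruSeq one for total RNA that keeps strand. Both tables list 115220 transcripts, and the EW values in them were identical.

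FPKM were summed by gene name. Differences were tested with limma 3.58.1 in R 4.3.3 (trended eBayes) on log2(FPKM + 1), with a filter at a mean of 0.5 FPKM and Benjamini-Hochberg adjustment over all genes kept. EW minus S and EWFxr1 minus EW were fitted on the 6 libraries compared, and EWFxr1 minus S on all 9. The code was tested on simulated data. Annotation came from GENCODE M21, to which 99.2% of transcripts matched. Hosts are the smallest annotated gene that spans a snoRNA on its strand. Reads were estimated from FPKM, length and the smallest steps of low values, and cover counting error only. Python 3.11.15, pandas 2.3.3, numpy 2.4.6, Biopython 1.88 and matplotlib 3.10.9 were used.

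The genes and lists were chosen with earlier results of these data known. Named genes were up to 6 of each class with the highest mean (the C/D class has 5), those without overlap between groups, those nearest the threshold of 1 FPKM, cleavage and imprinted families, hosts, core proteins, and the genes with the smallest p of the other lists. The values of 1 host gene are not reported here.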

Additional observations from a re-analysis of the deposited data

How the results depend on the processing

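Of 809 alternative values for the 45 fold changes of the 15 genes, 710 kept direction and side of the threshold, 68 uncalled ones changed sign, 11 gained and 20 lost the threshold, and 0 called ones changed sign. In EW minus S, the 1 H/ACA call became 0 with a pseudocount of 0.1, no filter, scaling to total FPKM, quantile normalization or all 9 libraries, and 0 to 2 when 1 library was left out. The count of all genes, 4156 (2298 higher, 1858 lower; 1626 and 3024 after scaling to total FPKM), was 1398 with all 9 libraries and 1822 to 3631 with 1 left out. The H/ACA log2 sum difference of 0.24 ran from -0.10 to 0.50 with 1 left out. The C/D value of -0.08 ran from -0.25 to 0.15, and was 0.025 over genes that overlap no other exon. The log2 difference of the H/ACA to C/D ratio, 0.32, ran from 0.10 to 0.48.

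In EWFxr1 minus EW, 2 H/ACA genes, Snora73b and Snora78, passed with all 9 libraries, and 0 to 2 H/ACA genes with 1 left out. The count of all genes, 60, was 29 with a pseudocount of 0.1, 273 with 5, 4 with no filter, 36 and 39 scaled to protein-coding and total FPKM, 92 after quantile normalization, 3366 with all 9 libraries, and 2 to 3316 with 1 left out, highest without EWFxr1 library 1. The H/ACA sum difference of -0.74 ran from -1.01 to -0.41, the C/D value of -0.43 from -0.65 to -0.25 and the ratio, -0.31, from -0.41 to -0.13. In EWFxr1 minus S, 1 H/ACA gene passed with the GC trend subtracted and 0 to 1 with 1 library left out. The 1 C/D call became 0 with no filter, quantile normalization or the 6 libraries compared, and 0 to 1 with 1 left out. The count of all genes, 1138, was 1963 with the GC trend subtracted, 183 with 6 libraries and 248 to 1440 with 1 left out. The H/ACA sum, -0.51, ran from -0.57 to -0.41 and the C/D sum, -0.51, from -0.72 to -0.29. The ratio, 0.0019, was -0.37 over genes that overlap no other exon, -0.30 without Snora74a (an alternative chosen after seeing the data) and -0.21 to 0.19 with 1 left out. The causes were not tested.

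No clear pairing of libraries by replicate number was seen, but deviations from means of 3 libraries cannot exclude one. Same-numbered deviations correlated at -0.06, -0.01 and 0.06 in EW and S. In EWFxr1 and EW they correlated at 0.07, -0.07 and 0.17, and in EWFxr1 and S at -0.24, -0.25 and 0.09. With the number as a replicate block, 1 C/D gene (Snord22) passed in EW minus S, also with the GC trend subtracted. All-gene counts with the block were 1 in EWFxr1 minus EW and 372 in EWFxr1 minus S, and with block and GC trend 1977 in EW minus S and 1 in EWFxr1 minus EW. Depth limits the genes at few reads.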
